A study of Caenorhabditis elegans with 2 samples.

Results

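The X chromosome of Caenorhabditis elegans carried 1363 of the 6541 peaks in the pooled list of HIF-1 binding regions, and 143 of the 631 peaks that passed the authors' reproducibility threshold. HIF-1 is the worm hypoxia-inducible factor. The members are all entries on chromosome X of the authors' relaxed list for the pooled reads of 2 replicates, and the 143 are those that the authors also kept in their thresholded set. The relaxed list holds background regions by design, so the results below rest on the 143 unless the relaxed list is named. Chromatin immunoprecipitation sequencing was done on 1 group of whole animals, hermaphrodite fourth-stage (L4) larvae of strain OR3350, in 2 biological replicates. The animals were grown for 55 h after bleaching and starvation had synchronised them as first-stage larvae. They carried HIF-1 fused at its C-terminal end to GFP and FLAG, and the antibody was directed against GFP. Both replicates came from this single transgenic strain, whole worms mix all tissues, and neither an oxygen level nor a promoter for the tagged gene is named. No second condition was analysed here, so the comparisons are between the X and the 5 autosomes within the same libraries.

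HIF-1 pairs with AHA-1 and binds DNA at hypoxia response elements, whose core is RCGTG, where R stands for A or G. It is known as the regulator that switches worms to low-oxygen and sulfide metabolism. The X chromosome differs from the autosomes in known ways. It is poor in genes expressed in the germline and in ribosomal protein genes, rich in genes of neurons and muscle and in tRNA genes, and in hermaphrodites both X copies are bound by the dosage compensation complex, which lowers their transcription. Hermaphrodites carry as many copies of the X as of each autosome.

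The sequences at the strongest X peaks are given first because RCGTG recurs among them, as does another sequence. The following windows reach 50 bp to either side of the summit, the position of highest signal in a peak, at the 6 strongest X peaks that held RCGTG. They are plus-strand sequence of assembly ce11 from RefSeq. Each is named by the protein-coding gene that holds the summit or otherwise by the one with the nearest start. Capitals mark RCGTG or its reverse complement.
ZK470.2 (chrX:4142255-4142355, plus strand): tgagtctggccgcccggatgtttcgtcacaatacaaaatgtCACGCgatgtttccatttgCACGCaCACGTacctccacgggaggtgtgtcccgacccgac
H18N23.2 (chrX:17631059-17631159, plus strand): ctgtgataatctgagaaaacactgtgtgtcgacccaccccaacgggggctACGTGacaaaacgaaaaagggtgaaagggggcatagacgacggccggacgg
mai-1 (chrX:3116364-3116464, plus strand): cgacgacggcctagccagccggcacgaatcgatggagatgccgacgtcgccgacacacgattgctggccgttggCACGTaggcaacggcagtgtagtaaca
gnrr-3 (chrX:10051805-10051905, plus strand): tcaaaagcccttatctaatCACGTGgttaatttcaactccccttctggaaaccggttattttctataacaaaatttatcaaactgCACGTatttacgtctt
acl-12 (chrX:7445959-7446059, plus strand): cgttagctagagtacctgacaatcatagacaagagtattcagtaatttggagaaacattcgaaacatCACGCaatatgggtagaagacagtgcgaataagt
sdha-1 (chrX:8546150-8546250, plus strand): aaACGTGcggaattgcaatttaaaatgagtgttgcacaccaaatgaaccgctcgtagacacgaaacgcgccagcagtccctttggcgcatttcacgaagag

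The other recurring sequence was found by an open search for sequences of 8 bases, described further below. The next windows show the 9 strongest X peaks with GCGCAGGG within 100 bp of the summit, each turned so that this sequence, in capitals, reads forward, with 12 bases on either side.
mom-1 (chrX:6296536-6296567, plus strand): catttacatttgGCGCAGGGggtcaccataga
xol-1 (chrX:8036423-8036454, plus strand): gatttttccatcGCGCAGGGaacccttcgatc
W02H3.3 (chrX:11094214-11094245, minus strand): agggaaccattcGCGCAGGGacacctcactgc
F20B6.9 (chrX:4209254-4209285, minus strand): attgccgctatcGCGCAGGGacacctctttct
nspc-17 (chrX:14525888-14525919, minus strand): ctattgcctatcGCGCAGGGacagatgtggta
F22H10.2 (chrX:16682160-16682191, minus strand): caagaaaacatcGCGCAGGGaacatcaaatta
Y41G9A.17 (chrX:2997111-2997142, minus strand): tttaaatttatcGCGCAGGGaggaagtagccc
gtr-1 (chrX:806662-806693, plus strand): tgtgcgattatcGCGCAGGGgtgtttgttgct
pks-1 (chrX:5429578-5429609, plus strand): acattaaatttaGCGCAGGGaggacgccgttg

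The X held more peaks than its length accounts for. It made up 23.4% of the 612 nuclear thresholded peaks (143 of 612, 95% Wilson interval 20.2 to 26.9), whereas it makes up 17.7% of nuclear bases (two-sided exact binomial test, adjusted p = 0.00148). The density was 8.07 peaks per Mb on the X and 5.68 per Mb on the autosomes, a ratio of 1.42. Among the autosomes it ran from 4.35 per Mb on chromosome V to 7.003 on chromosome II, so all 5 lay below the X. The X was also the densest chromosome among the 631 strongest peaks of each replicate, with 9.03 per Mb on the X in replicate 1 against an autosomal range of 4.06 to 6.87, and 8.07 in replicate 2 against 4.44 to 7.25. Peaks are not independent replicates, so the exact tests here measure the number of peaks alone.

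**Figure D1:**
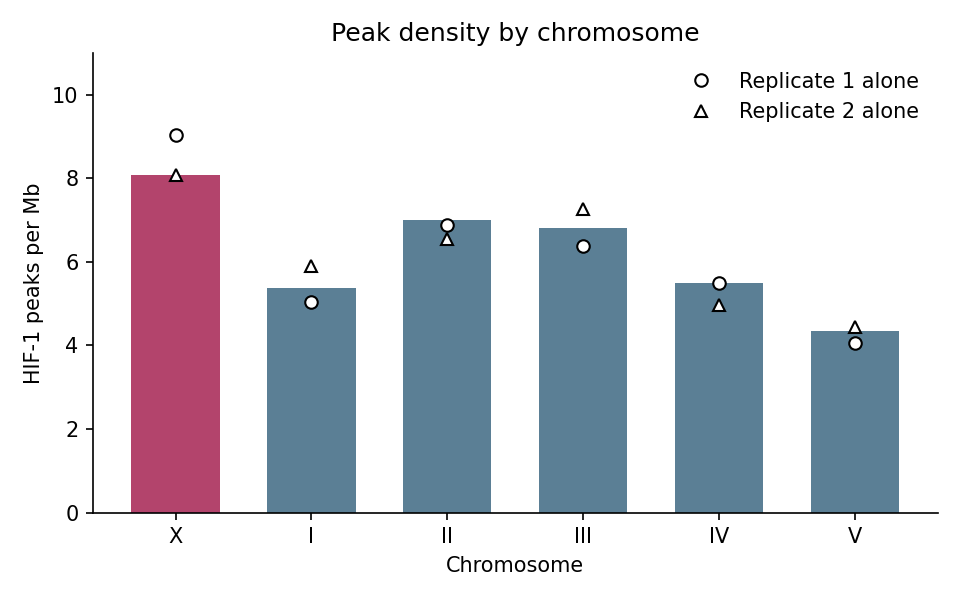
HIF-1 peaks per Mb (y axis) on the X and on each autosome (x axis). Bars show the thresholded set and open symbols the 631 strongest peaks of each replicate alone. The X bar stands at 8.07 per Mb and the highest autosomal bar, chromosome II, at 7.003.

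The X has fewer genes per Mb than any autosome (154 protein-coding genes per Mb, against 188 to 239), and counted per gene its excess of peaks was larger. There were 52.4 thresholded peaks per 1000 protein-coding genes on the X and 27.2 on the autosomes. The relaxed pooled list had 76.9 peaks per Mb on the X and 62.5 on the autosomes, a ratio of 1.23. Of the relaxed peaks, 10.5% of those on the X passed the threshold, against 9.09% on the autosomes and 9.65% over all chromosomes. That difference of 1.40 percentage points did not pass the test (95% interval -0.322 to 3.30, Fisher exact test, adjusted p = 0.235), although it did in the ce10 lists (12.4% on the X against 9.95%, Fisher exact test, adjusted p = 0.0329).

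In the thresholded set, the density of peaks varied less between segments of the X than between those of any single autosome. In 5 equal segments from the left to the right end the X had 7.34, 7.62, 7.05, 9.31 and 9.03 peaks per Mb. The densest segment had 1.32 times the density of the sparsest, while this ratio was 1.63 on chromosome IV, 2.33 on III, 2.56 on I, 3.20 on V and 10.3 on II. The pooled autosomes had 3.39, 6.36, 7.15, 6.66 and 4.85 peaks per Mb, low at both ends. No test was made of the shape. Protein-coding genes were also evenly spread on the X, at 136 to 169 per Mb by segment. On the autosomes they ran from 136 to 230 on I, 174 to 261 on II, 152 to 222 on III, 130 to 240 on IV and 195 to 279 on V. The part of gene spread was not tested. Single autosomes held 81 to 107 peaks against 143 on the X, and a ratio of densest to sparsest segment is less stable with fewer peaks. Each replicate alone gave a ratio on the X of 1.48, with the fourth segment highest for replicate 2 and the last segment highest for replicate 1. In the 17 complete windows of 1 Mb the X had a median of 8 peaks, with the fewest (3) between 9 and 10 Mb and the most (13) between 6 and 7 Mb.

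**Figure D2:**
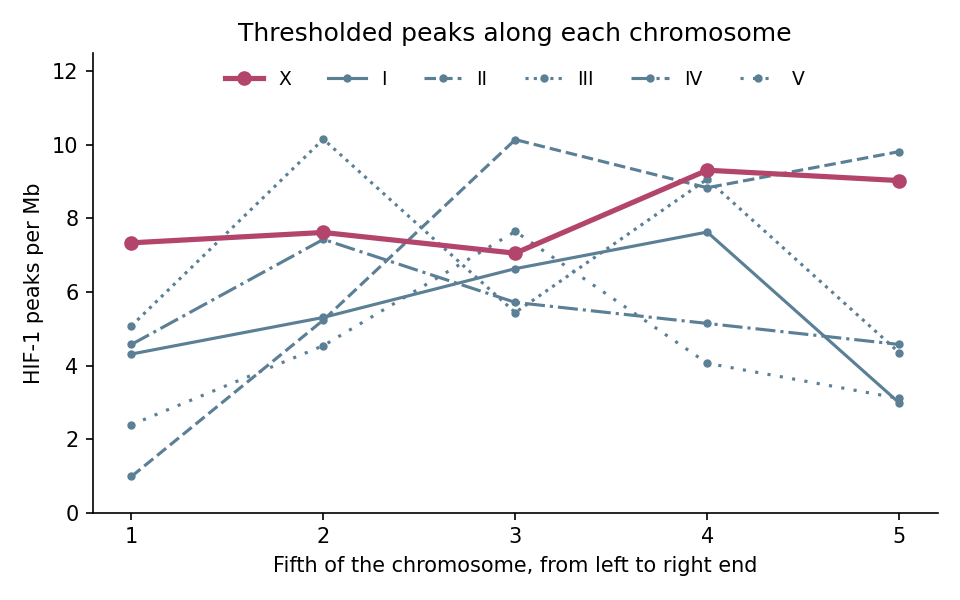
Thresholded peaks per Mb (y axis) in 5 equal segments of each chromosome from left to right (x axis). The X line stays between 7.05 and 9.31 per Mb, whereas chromosome II runs from 0.982 to 10.1.

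Some X loci carried several peaks of the list. The intervals of some of these overlap, and whether overlapping peaks are separate sites was not tested. Joining summits no more than 5 kb apart left 105 single peaks, 11 pairs and 5 groups of 3 or more. The gene H18N23.2 held 4 summits, with signal values of 352, 86.1, 74.9 and 62.7. ZK470.2 held 3, with 649, 91.9 and 66.9, and the intervals of the peaks with 649 and 91.9 overlap. Signal is the authors' value for a peak relative to a control, and it is used here only to rank and describe peaks within a list. A further group of 3 covered 6198 bp from 6737775 to 6743972 next to and at mdl-1, which encodes a MAD-like factor of the same broad helix-loop-helix class as HIF-1. The median distance between neighbouring summits was 71.5 kb on the X and 84.1 kb on the autosomes, while distances under 2 kb made up 12 of 142 on the X and 57 of 464 on the autosomes.

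X summits lay less often in promoters and more often outside promoters and protein-coding genes. A promoter began 1000 bp before the start of a protein-coding gene and ended 200 bp after it. It held 49 of the 143 X summits (34.3%, 95% Wilson interval 26.99 to 42.4) and 246 of the 469 autosomal ones (52.5%, 47.9 to 56.9), a difference of -18.2 percentage points (95% interval -26.7 to -8.91, Fisher exact test, adjusted p = 0.00108). Sequence outside promoters and protein-coding genes, called other sequence here, held 62 X summits (43.4%, 35.5 to 51.5) and 106 autosomal ones (22.6%, 19.05 to 26.6), a difference of 20.8 points (11.95 to 29.7, Fisher exact test, adjusted p = 3.87e-05). Of these, 18 X summits and 15 autosomal ones lay beside a noncoding RNA gene, as defined below. Among single autosomes the promoter share ran from 46.7% to 59.3% and the share in other sequence from 16.0% to 26.04%, so the X lay outside both ranges. In the strongest peaks of replicates 1 and 2 the promoter share was 38.8% and 29.4% on the X, against 51.6% and 51.0% on the autosomes.

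The chromosomes also differ in make-up, and its part in these shares was not tested. Promoter windows cover 17.6% of X bases and 22.3% of autosomal bases, and other sequence covers 32.3% and 23.5%. Relative to these shares, promoter summits were 1.95 times as frequent as bases on the X and 2.35 times on the autosomes. Summits in other sequence were 1.34 times as frequent as bases on the X and 0.962 times on the autosomes. Per Mb of chromosome, promoter peaks were about as dense on the X (2.77) as on the autosomes (2.98), whereas peaks in other sequence stood at 3.50 and 1.28 and intron peaks at 1.75 and 1.13. Introns held 31 X summits (21.7%) and 93 autosomal ones (19.8%), a difference of 1.85 points that did not pass the test (-5.25 to 10.02, Fisher exact test, adjusted p = 0.953). Exons held 1 X summit (0.699%), in pks-1, a polyketide synthase gene, and 24 autosomal ones (5.12%, Fisher exact test, adjusted p = 0.0454). That call was lost without replicate 1 (adjusted p = 0.429), without replicate 2 (adjusted p = 0.385), in the stronger 50% of peaks (adjusted p = 0.805) and with either other promoter window (adjusted p = 0.133 and 0.281, Fisher exact tests).

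**Figure D3:**
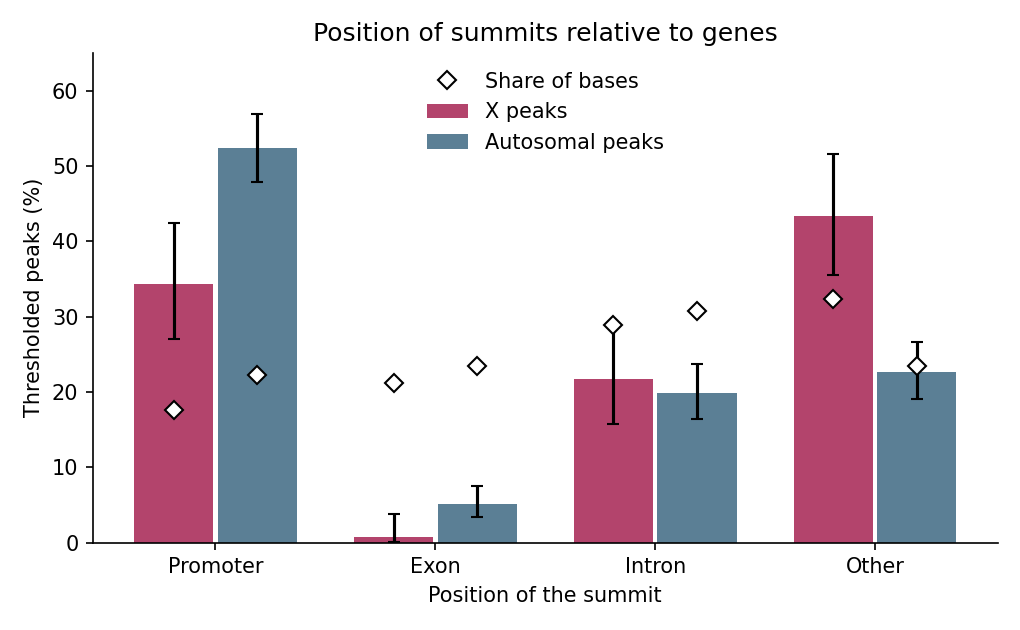
Share of thresholded peaks (y axis, %) whose summit lay in a promoter, exon, intron or other sequence (x axis), on the X and on the autosomes. Error bars are 95% Wilson intervals and diamonds the share of bases in each class. The X bar is the lower of the pair for promoters (34.3% against 52.5%) and the higher for other sequence (43.4% against 22.6%).

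The median distance to the nearest protein-coding gene start was 2584 bp for the 62 X summits in other sequence, with a range of 866 to 9343 bp, and 34 of them were upstream of it. For the 106 autosomal ones the median was 2174 bp. Of the X summits in introns, 11 of 31 were more than 5 kb from any protein-coding gene start. Their median distance over all 31 was 3815 bp, against 2465 bp on the autosomes. For promoter summits the median was 290 bp on the X and 215.5 bp on the autosomes.

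No difference in peak strength between the X and the autosomes was detected. On the X the median signal was 77.8 (quartiles 64.6 and 108, range 54.1 to 649), and on the autosomes it was 75.6 (quartiles 60.7 and 102.6, range 54.1 to 838). Of the X peaks 51.0% were above the median of all nuclear peaks, against 49.7% of the autosomal ones, a difference of 1.37 points (-7.91 to 10.6, Fisher exact test, adjusted p = 1.0). Medians of single autosomes ran from 68.5 on chromosome I to 82.1 on III. The thresholded set holds exactly the 631 strongest pooled peaks, so both groups share its lower limit. Just inside it on the X were peaks at nas-10 (55.3), twf-2 (54.12) and near nhr-40 (54.10), and just outside were peaks at F46H5.2 (54.05), in an intron with mdl-1 as the nearest start (53.63) and at mxl-3 (53.62).

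Both replicates held most X peaks. A summit within 100 bp was found in both relaxed replicate lists for 135 of 143 X peaks (94.4%) and 443 of 469 autosomal ones (94.5%). The set was chosen for this property, so the share is a description. The strongest X peak without a partner in both lists had a signal of 92.5. Over the 135 peaks the replicate signals correlated with 0.875 by Pearson and 0.515 by Spearman, a description across peaks of the same 2 libraries. All 20 strongest X peaks ranked among the 631 strongest of each replicate, between ranks 13 and 137 in replicate 1 and between ranks 15 and 106 in replicate 2.

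The strongest X peak, whose sequence is given above, had a signal of 649 in the pooled list (335 in replicate 1 and 325 in replicate 2). It was the fourth strongest nuclear peak and lay in an intron of ZK470.2. The next, in an intron of H18N23.2, had 352 (212 and 140 in replicates 1 and 2). The peak at mai-1, a homologue of the mitochondrial ATPase inhibitor, had 294 and a summit 175 bp downstream of the gene start. A peak of 254 lay in an intron of gnrr-3, which encodes a receptor related to that of gonadotropin-releasing hormone. A peak of 234 lay 3432 bp upstream of acl-12, an acyltransferase-like gene, and one of 221 lay 179 bp upstream of sdha-1, which encodes the flavoprotein subunit of succinate dehydrogenase. These 6 held RCGTG within 50 bp, and both replicates placed them among their 66 strongest peaks.

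Below these came peaks of nearly equal height, most of them without RCGTG within 50 bp of the summit. At ranks 7 and 8 on the X were peaks of 215, in a mom-1 intron, and 212, 4842 bp upstream of xol-1. mom-1 encodes the Porcupine-type acyltransferase that prepares Wnt proteins for secretion, and xol-1 sets sex from the number of X chromosomes. Peaks of 210 near F55G7.5, 207 near W02H3.3 and 206 at 700 bp upstream of nspc-17 followed, none with RCGTG within 50 bp. A peak of 207 near F20B6.9 held RCGTG as well as GCGCAGGG. A peak of 204 lay 6002 bp upstream of K02D3.1 and another of 204 in an intron of pccb-1, which encodes a subunit of propionyl-CoA carboxylase. The remaining 6 of the 20 strongest had signals from 188 to 154. They lay outside protein-coding genes near ZK899.6, F22H10.2, T27A8.7, F09E10.1 and F19H6.5 and in an intron of Y41G9A.17. Of the 20, 11 lay in other sequence, 6 in introns and 3 in promoters.

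**Figure D4:**
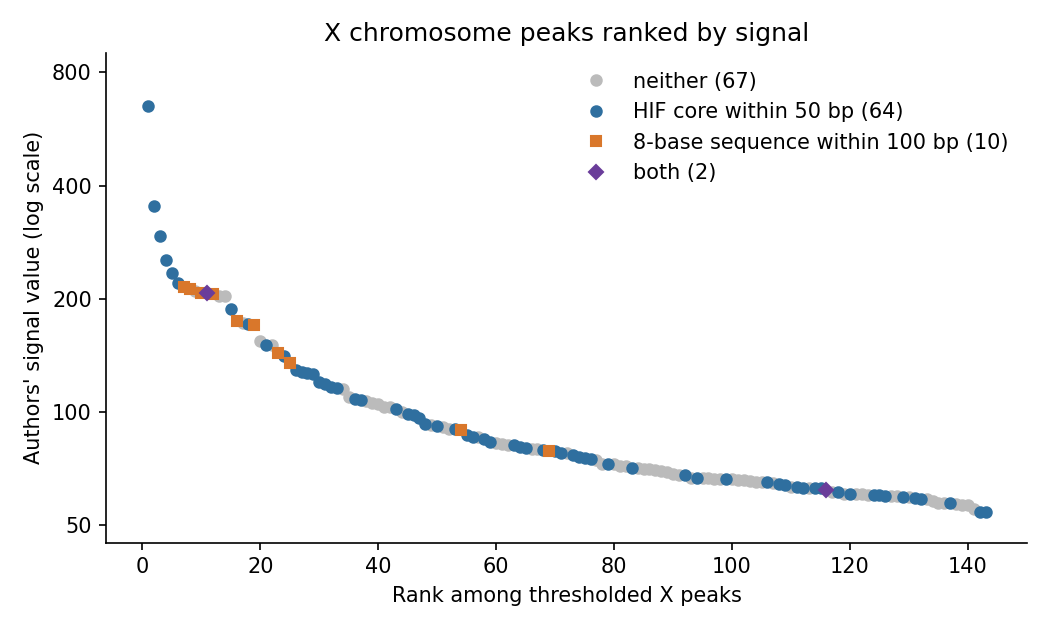
Signal (y axis, authors' value, log scale) of the 143 thresholded X peaks by rank (x axis). Colours mark peaks with the RCGTG core of HIF within 50 bp of the summit, with the 8-base sequence within 100 bp, with both or with neither. Of the 12 peaks with the 8-base sequence, 9 are among the 29 strongest.

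No difference in the frequency of RCGTG was detected between X and autosomal summits. It lay within 50 bp of 66 of 143 X summits (46.2%, 95% Wilson interval 38.2 to 54.3) and 221 of 469 autosomal summits (47.1%), searched on both strands. The difference of -0.968 points did not pass the test (-10.1 to 8.34, Fisher exact test, adjusted p = 1.0). Of all windows of 101 bp on the X 14.1% hold RCGTG, and flanks centred 500 bp to either side of the X summits held it in 15.4% of cases on both sides. By position, it was present at 18 of 31 X summits in introns (58.1%), 21 of 49 in promoters (42.9%) and 27 of 62 in other sequence (43.5%). The form ACGTG lay at 30.1% of X summits and GCGTG at 27.3%, against 28.4% and 21.5% on the autosomes. From the strongest to the weakest of 5 bins of X peaks the share with RCGTG was 51.7%, 55.2%, 44.8%, 35.7% and 42.9%. On the autosomes it was 64.9%, 43.6%, 52.1%, 35.1% and 39.8% in the same order.

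The repeat GAGAGA, read on both strands, lay within 50 bp of 26 X summits (18.2%) and 125 autosomal ones (26.7%). All 5 autosomes were above the X, from 23.1% on chromosome V to 33.3% on I, but the difference of -8.47 points did not pass the test (-15.3 to -0.395, Fisher exact test, adjusted p = 0.11). Of all X windows of this length 4.90% hold it. The mean GC content within 50 bp was 48.0% at X summits and 47.3% at autosomal ones, in chromosomes with 35.2% and 35.5%.

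The open search asked which sequences of 8 bases differed most in share between X and autosomal summits. It was made after the values were seen and carries no test. Of 22616 sequences found within 50 bp of nuclear summits, with reverse complements merged, GCGCAGGG had the largest excess. It lay at 10 of 143 X summits (6.99%, 95% Wilson interval 3.84 to 12.4) and at 0 of 469 autosomal summits, whose interval reaches 0.812%. Of the next 6 sequences in this order, 4 read as shifted forms of the same stretch, and the one at rank 7, GCGAAGGG, differs from it at 1 base and lay at 7 X summits and 1 autosomal summit. In the strongest peaks of replicate 1 alone GCGCAGGG ranked 4 in the search (7 X summits, 0 autosomal), and in those of replicate 2 it ranked 2 (10 X summits, 1 autosomal). GCGCAGGG contains neither RCGTG nor GAGAGA on either strand.

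Within 100 bp of the summit GCGCAGGG was found at 12 X peaks (8.39%) and 1 autosomal peak (0.213%). With 1 mismatch allowed the contrast was smaller, at 34 X peaks (23.8%) and 57 autosomal peaks (12.2%). The 12 X peaks with the exact sequence had signals from 62.2 to 215 with a median of 173, and all 12 had a summit in both replicate lists. In the strongest of the 5 bins of X peaks 9 of 29 held it (31.0%), and in the other bins between 0 and 1 did. On the autosomes the strongest bin held 0 of 94. Of the 12, 2 also held RCGTG, and 67 X peaks had neither. The 12 lay in other sequence (6), promoters (3), introns (2) and the exon of pks-1 (1). Besides the peaks printed above they were at ins-39, an insulin-like peptide gene (89.7), near T24D8.6 (78.97) and at R04E5.9 and cnnm-2, which share a promoter (62.2).

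The neighbouring letters were also alike. Among the 12 sites, the base before GCGCAGGG was C in 9, the base before that was T in 10, and the base after it was A in 9. The sequence and the summit were 7 to 77 bp apart (median 32), with the sequence on the plus strand at 5 and on the minus strand at 7. As background, GCGCAGGG is part of MEX, the motif by which C. elegans X recruitment sites for the dosage compensation complex were described. No map of that complex was used here, and whether these peaks lie at such sites was not tested.

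The same summits were also counted from the side of the sequence, which repeats the choice of GCGCAGGG by its X excess and is no further support for it. GCGCAGGG occurs 81 times on the X and 233 times on the autosomes, which is 4.57 and 2.82 times per Mb. A thresholded summit lay within 100 bp of 15 of the 81 X occurrences (18.5%, 95% Wilson interval 11.6 to 28.3) and of 1 of the 233 autosomal ones (0.429%, 0.0758 to 2.39). In the relaxed pooled list these shares were 29.6% and 2.58%. In the relaxed lists of replicates 1 and 2 they were 30.9% and 33.3% on the X, against 3.86% and 5.15% on the autosomes. With the peaks that hold it left out, a choice made after the values were seen, the X made up 21.9% of nuclear peaks (exact binomial test, adjusted p = 0.0344). Other sequence then held 42.7% of X peaks and 22.6% of autosomal peaks (Fisher exact test, adjusted p = 0.000138). Only summits within 100 bp of GCGCAGGG were left out here. Neighbouring peaks that overlap them stayed in, at mom-1 (91.3), nspc-17 (90.3), xol-1 (82.4) and W02H3.3 (59.3). The shares without these neighbours as well were not tested.

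**Figure D5:**
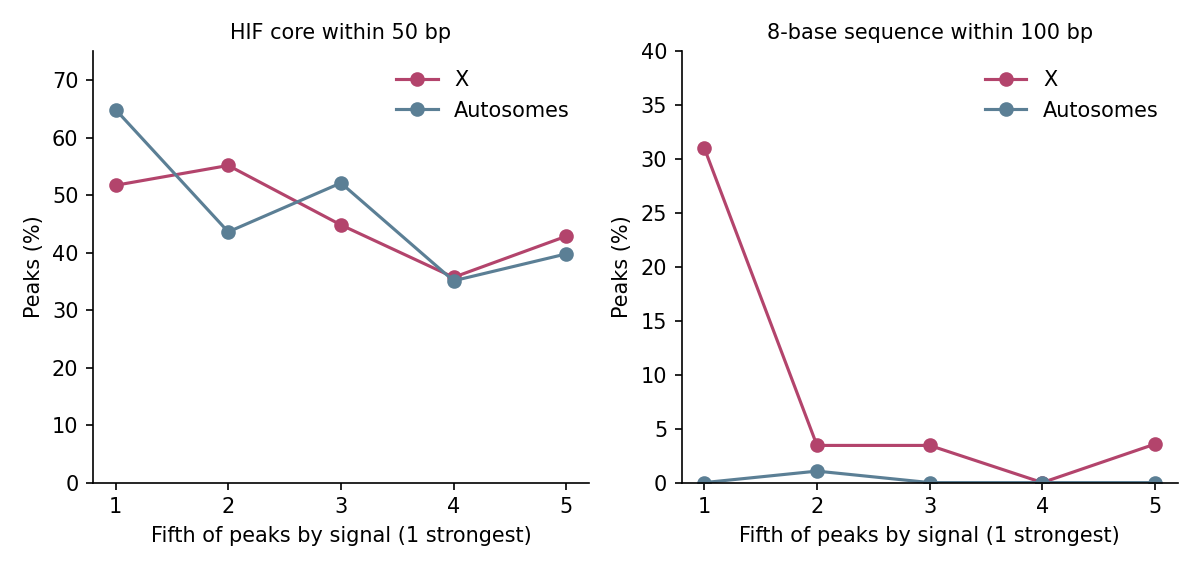
Share of peaks (y axes, %) with the RCGTG core of HIF (left) and with the 8-base sequence (right) in 5 bins of peaks ordered by falling signal (x axes), on the X and on the autosomes. The right panel reaches 31.0% in the strongest X bin and stays at or below 1.06% on the autosomes.

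tRNA genes are crowded on the X, which holds 276 of the 612 nuclear ones (45.1%). A summit lay between 500 bp upstream and 200 bp downstream of a tRNA gene start for 26 of the 143 X peaks (18.2%) and 20 of the 469 autosomal ones (4.26%, Fisher exact test, adjusted p = 5.17e-06). Counted per gene the shares were closer, with 32 of 276 tRNA genes on the X (11.6%) and 24 of 336 on the autosomes (7.14%). For small nucleolar RNA genes, which guide the modification of ribosomal RNA, the order was the other way, with 2 of 33 on the X (6.06%) and 37 of 313 on the autosomes (11.8%). Over tRNA, snoRNA, snRNA, rRNA and miRNA genes together, 29 X peaks (20.3%) and 72 autosomal peaks (15.4%) lay beside a gene, and the difference of 4.93 points did not pass the test (-1.84 to 12.8, Fisher exact test, adjusted p = 0.339). The 29 X peaks had a median signal of 66.4, 18 of them lay in other sequence, and 8 held RCGTG. Of the 74 miRNA genes on the X 1 was beside a peak, cel-mir-54 (109). The snoRNA gene D2021.6 shared the sdha-1 peak. Without the peaks beside noncoding RNA genes the X made up 22.3% of nuclear peaks and 38.6% of its summits lay in promoters, against 55.4% on the autosomes.

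Target genes were the protein-coding genes with a summit in the promoter window. Of the 2731 X genes 53 were bound (1.94%, 95% Wilson interval 1.49 to 2.53), against 331 of 17242 autosomal genes (1.92%) and 1.92% of all nuclear genes. The difference of 0.0210 points did not pass the test (-0.482 to 0.641, Fisher exact test, adjusted p = 1.0). With each summit assigned to its closest start instead, 124 X genes (4.54%) and 2.40% of autosomal genes had a summit assigned (Fisher exact test, adjusted p = 2.66e-08). This gives every summit a gene at any distance, so the share rises with the number of peaks per gene given above. It is no separate result on target genes. The 49 promoter peaks served 53 genes, since 6 of them lay at promoters of 2 genes. The promoters of nspc-17 and of epn-1, an epsin gene of endocytosis, each held 2 peaks with overlapping intervals. Whether these are separate sites was not tested.

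The counts by list are to be read beside all protein-coding genes, of which 1.94% on the X and 1.92% on the autosomes were bound. Of the 6 X members of the respiratory chain list 3 were bound, beside 7 of 61 on the autosomes. They were mai-1 (294), sdha-1 (221) and ucr-2.1 (67.999), which encodes a core subunit of the cytochrome bc1 complex and shares its peak with nmat-1. Of the 6 X members of the citric acid and glyoxylate cycles 1 was bound, sdha-1, beside 3 of 19 on the autosomes. Of the 3 glycolysis genes on the X 0 were bound, beside 6 of 24. Of the genes described as dependent on HIF-1, 9 of 16 on the autosomes were bound. The only X gene of that list was cdo-1, the cysteine dioxygenase gene. The cdo-1 peak of 127 lay 971 bp upstream of the gene start, within the neighbouring gene lgl-1, and held RCGTG. Its signal was 29.7 in replicate 1 and 77.4 in replicate 2, ranks 621 and 82. Of the 2 X genes of the HIF-1 pathway 0 were bound, beside 2 of 10 on the autosomes. Named after their values were seen, the propionyl-CoA carboxylase subunit genes pcca-1 and pccb-1, which feed propionate into the citric acid cycle, both carried peaks, of 103.4 in the promoter and 204 in an intron.

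Of the 5 X members of the chaperone list 1 was bound, beside 8 of 55 on the autosomes (14.5%). It was hsp-3, which encodes an HSP70 of the endoplasmic reticulum (90.1, 65 bp upstream, with RCGTG). Single members were bound in 5 further lists, to be read against the 1.94% of all X genes. Of 9 X genes of the helix-loop-helix class it was mdl-1 (67.9), beside 1 of 31 on the autosomes. Of 23 nuclear hormone receptors it was nhr-1 (66.4), beside 5 of 246. Of 37 neuropeptide and insulin genes it was ins-39, beside 0 of 107, and of 17 F-box genes it was fbxb-58 (105), beside 4 of 305. Of 6 heterochronic genes it was ain-1 (102), which encodes a partner of Argonaute in microRNA silencing, beside 0 of 11. Introns of lin-14 (69.8) and daf-12 (62.99), named after their values were seen, also held summits.

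Most other lists had no bound X member. None was bound of 48 peptide and amine receptor genes, 29 ligand-gated channel genes, 23 voltage-gated channel genes, 27 homeobox genes, 31 collagen genes, 14 muscle protein genes, 13 guidance genes or 34 chemoreceptor genes, nor of 20 detoxification genes, 5 vitellogenin genes, 4 lectin and lysozyme genes or 2 ribosomal protein genes. At the 1.94% of all X genes, lists of these sizes would hold few bound members, and the lists were not tested. On the autosomes 17 of 78 ribosomal protein genes were bound (21.8%), beside 1.92% of all autosomal genes. Of the 6 X members of the list of X signal elements and dosage compensation genes 0 were bound, and the nearest start to the peak of 212 described above was that of xol-1, outside its promoter window.

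Other promoter peaks of the X lay at T18D3.1 and T18D3.9, which share a peak of 150.7, and at ftt-2, which encodes a 14-3-3 protein that binds phosphorylated partners (150.6). Further ones were at epn-1 (141), serp-1.1 (129.4), F17H10.1 (119), puf-9, a Pumilio-type RNA-binding protein gene (116), spc-1, which encodes alpha spectrin of the membrane skeleton (109), and bet-2, a bromodomain protein gene (103.2). An intron of aak-2, a catalytic subunit gene of the AMP-activated protein kinase that responds to low energy, held a peak of 116 with RCGTG, 910 bp downstream of the gene start. These genes beyond the 20 strongest peaks were named after their values were seen.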

How the data were processed

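Peaks on ce11 were analysed, with the authors' deposited signal value for each peak, given relative to a control. The sources used here do not state its formula. Per the deposited file descriptions, the relaxed lists were made from alignments and 1 control and the thresholded set from these lists by irreproducible discovery rate. The sources used here give no aligner, caller, version or threshold, and without read counts the depth is unknown. The relaxed replicate lists held 13935 and 13823 peaks. Positions were compared with WBcel235 (ce11) and Ensembl release 115 genes, 1-based. The ce10 lists were used by chromosome and signal alone, without coordinates.

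Summits were assigned to promoters, then exons, introns or other sequence of protein-coding genes. X and autosomes were compared over peaks with Fisher exact tests (scipy 1.17.1), or an exact binomial test for density, with Benjamini-Hochberg adjustment over 12 tests and a threshold of 0.05. Intervals of shares are Wilson, those of differences Newcombe, and they cover counting error only. Mitochondrial peaks (19) were left out. "Without replicate 1" means the 631 strongest peaks of replicate 2, and the reverse. For distinct intervals, identical intervals were counted once by their strongest summit, while overlapping ones stayed separate.

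Members, lists and tests were chosen with earlier results of these data known. Genes named by rule were those at the 20 strongest X peaks, at most 3 bound X members per list of 25, those beside noncoding RNA genes, and peaks at the edge of the set. Other genes were added after their values were seen, among them further promoter peaks, intron peaks, genes in groups of peaks and those with the 8-base sequence. Of the list members 6 names matched no gene. Scripts were tested on simulated peaks.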

Additional observations from a re-analysis of the deposited data

How the results depend on the processing

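Of 104 alternatives to the 12 tested results, 80 kept the direction and the side of the threshold. The excess of peaks on the X, its lower promoter share and its higher share in other sequence were called in all 14 alternatives each, autosomes left out in turn included. Their X minus autosome differences ran from 3.23 to 9.69, from -22.5 to -10.5 and from 12.1 to 22.9 percentage points. The remaining values are given as X minus autosome percentage points. The ranges without a replicate are from the strongest peaks of the other one.

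For exons, called in the thresholded set, the difference was -3.27 without replicate 1, -2.57 without replicate 2, -2.92 in the stronger 50% of peaks, -4.09 with the promoter cut to 500 bp before and 100 bp after the start and -2.71 with it widened to 2000 and 500 bp, and none of these was called. Calls were gained for the share passing the threshold in ce10 (2.40), for noncoding RNA genes in the pooled relaxed list (5.72) and for tRNA genes alone (13.9). One was also gained for genes with a summit assigned by nearest gene start (2.15).

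Differences that were not called changed sign as follows. For introns it was -1.78 without replicate 2, 2.70 without replicate 1 and up to 5.84 with the promoter widened to 2000 and 500 bp. For signal above the median it ran from -5.08 without replicate 2 to 4.11 without replicate 1 and was -1.88 in ce10. For RCGTG it was 0.206 in the stronger 50%, 2.30 in the pooled relaxed list, 0.501 within 25 bp, 1.63 without peaks that hold the 8-base sequence and 1.26 without peaks beside noncoding RNA genes. For GAGAGA within 200 bp it was 0.695. For summits in both replicates it was 1.07 within 200 bp and 1.75 against the strongest peaks. For bound genes it ran from -0.222 without replicate 1 to 0.650 without replicate 2, and was -0.119 in the stronger 50%, -0.104 in the pooled relaxed list and -0.0603 with the 500 bp window.

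The ratio of the densest to the sparsest X segment was 1.48 without either replicate, 1.42 in the stronger 50% and 1.17 in the pooled relaxed list. The share of X peaks with the 8-base sequence was 15.1% in the stronger 50% and 1.54% in the pooled relaxed list. Alternatives that left out an autosome, peaks with the 8-base sequence or peaks beside noncoding RNA genes, and those of the 8-base share, were chosen after seeing the data. The cause was not tested for any of these. No paired analysis was possible because there is 1 group.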
